A study of Canis lupus familiaris with 10 samples.

Results

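The genes of MHC class II antigen presentation were examined in whole neural retina from dogs with primary glaucoma and from healthy dogs, with 1 Affymetrix Canine genome 2.0 array per dog. The members were 10 named genes (DLA-DRA, DLA-DRB1, DLA-DQA1, DLA-DQB1, DLA-DMA, DLA-DMB, DLA-DOA, CD74, CIITA and IFI30), and every probe set whose only gene symbol is one of these names was taken. This gave 19 probe sets of 9 genes, out of 42924 probe sets on the array without its controls and 15115 genes with a probe set of their own symbol. DLA-DRB1 had no probe set under its own symbol. A single probe set is annotated with the human name HLA-DRB1, for which RefSeq lists DLA-DRB1 as a synonym, and it is given beside the members but was not counted with them.

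The glaucoma group held 5 dogs, a Shiba Inu of 5 years (glaucoma 1), a Shiba Inu of 14 years (glaucoma 2), a Basset Hound of 5 years (glaucoma 3), a Basset Hound of 7 years (glaucoma 4) and a Dalmatian of 9 years (glaucoma 5). The healthy group held 5 Beagles of 4 years (healthy 1 to 5). Breeds and ages are those of the sample labels, and the study lists other ages for the older Shiba Inu and the Dalmatian. All glaucomatous eyes had a closed angle and had received topical drugs that lower the intraocular pressure, and none had been operated on. The study lists no medication for the healthy dogs. Glaucomatous eyes were removed from clinic patients to relieve pain, whereas the healthy dogs had been euthanized for other reasons. The groups had no breed in common and the youngest glaucoma dog was older than the Beagles. Disease, breed, age, medication and the way the eyes were obtained therefore cannot be told apart here.

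MHC class II molecules are pairs of an alpha and a beta chain that carry peptides from the endosome to the cell surface, where CD4+ T cells read them. The invariant chain CD74 escorts new pairs and blocks their groove, lysosomal proteases cut it down, and the DM molecule exchanges its last fragment for a peptide under the control of DO. Transcription of these genes depends on the coactivator CIITA, which interferon gamma induces. In the healthy retina class II is found mainly on microglia and on cells around vessels, and it is a common marker of their activation.

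Levels are log2 values of the RMA intensity, in which a difference of 1 is a 2-fold change. A probe set was tested where its log2 level was above 7 in at least 2 retinas, which 18416 probe sets met, and it was called at an adjusted p under 0.05 from limma. The arrays had median intensities of 77.1 to 80.7, with 15910 to 16315 probe sets over that minimum on each. Rod and cone genes marked the tissue as retina in every sample, with the rod arrestin SAG at 13.82 to 14.25 in the healthy and 10.55 to 14.09 in the glaucomatous retinas. A pair of retinas stood apart. Glaucoma 1 and healthy 4 were high in genes of the retinal pigment epithelium, the cell layer behind the neural retina (mean of 11 genes 3.04 and 2.17 above the healthy mean, against -0.75 to 1.05 in the others), and glaucoma 1 was low in rod and cone genes (mean of 12 genes -3.30). Without these 2 retinas the same numbers of member probe sets and member genes were called, 15 and 7.

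Levels of the class II chains, their chaperones and the lysosomal reductase IFI30 were higher in glaucoma, whereas those of CIITA and DLA-DOA did not pass the test. Of the 19 member probe sets, 15 were higher in glaucoma, 0 were lower, 2 were tested and did not pass, and 2 lay below the minimum and were not tested. Over all tested probe sets, 7.58% were called higher. In the same 15 probe sets every glaucomatous retina lay above every healthy retina, which held for 6.82% of all tested probe sets. The differences of the 15 ranged from 1.42 to 3.24, and the median difference was 1.62 over all 19 member probe sets and -0.02 over all tested probe sets. Since retina was measured in bulk, more cells of a type and more RNA per cell cannot be told apart.

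DLA-DRA encodes the nearly invariant alpha chain of the DR molecule. Its level was 12.61, 11.27, 11.79, 11.80 and 12.55 in glaucoma 1 to 5 and 9.40, 9.45, 9.65, 9.08 and 8.79 in healthy 1 to 5. The groups did not overlap, and the lowest glaucomatous retina, that of the older Shiba Inu, lay 1.62 above the highest healthy retina. The means were 12.004 ± 0.569 and 9.274 ± 0.337 (SD, n = 5 each), a difference of 2.73 or 6.63-fold (SE 0.26, adjusted p = 0.000112 from limma). A second DLA-DRA probe set gave 2.68 (SE 0.35, adjusted p = 0.000543).

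HLA-DRB1, the probe set of the DR beta chain, which carries most of the variation between DR molecules, ran alongside. Its level was 13.00, 11.63, 11.92, 12.15 and 12.71 in glaucoma 1 to 5 and 9.79, 9.42, 9.93, 9.31 and 9.16 in healthy 1 to 5. The same 2 glaucoma dogs, the younger Shiba Inu and the Dalmatian, were highest for both DR chains. The difference was 2.76 or 6.78-fold (SE 0.26, adjusted p = 0.000105 from limma).

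By size, the DQ chains had the largest differences among the members. DLA-DQA1, the DQ alpha chain, was at 11.80, 9.996, 10.24, 10.97 and 11.73 in glaucoma 1 to 5 and at 7.83, 7.56, 8.24, 7.30 and 7.60 in healthy 1 to 5. The retinas of glaucoma 1 and glaucoma 5 were again high, and a gap of 1.76 separated the groups. The means of 10.95 ± 0.83 and 7.71 ± 0.35 (SD, n = 5 each) differed by 3.24 or 9.45-fold (SE 0.35, adjusted p = 0.000202 from limma). DLA-DQB1, the DQ beta chain, was at 10.95, 9.83, 9.65, 10.12 and 11.52 in glaucoma and at 7.21, 7.32, 7.85, 6.85 and 7.17 in the healthy retinas. Here the Dalmatian stood above the other glaucoma dogs and healthy 3 above the other Beagles, with no overlap between the groups. The difference was 3.14 or 8.79-fold (SE 0.34, adjusted p = 0.000203).

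The 2 probe sets of DLA-DQA1 gave unlike sizes. The dimmer one was at 8.56, 6.22, 7.36, 8.05 and 8.46 in glaucoma and at 5.31, 5.27, 5.86, 5.13 and 5.29 in the healthy retinas. All healthy retinas and the older Shiba Inu thus lay below the minimum for an expressed gene. Its difference was 2.36 (SE 0.39, adjusted p = 0.00248 from limma). Class II genes vary between dogs in sequence, and a difference in level and a difference in how probes bind the alleles of each breed cannot be told apart.

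**Figure D1:**
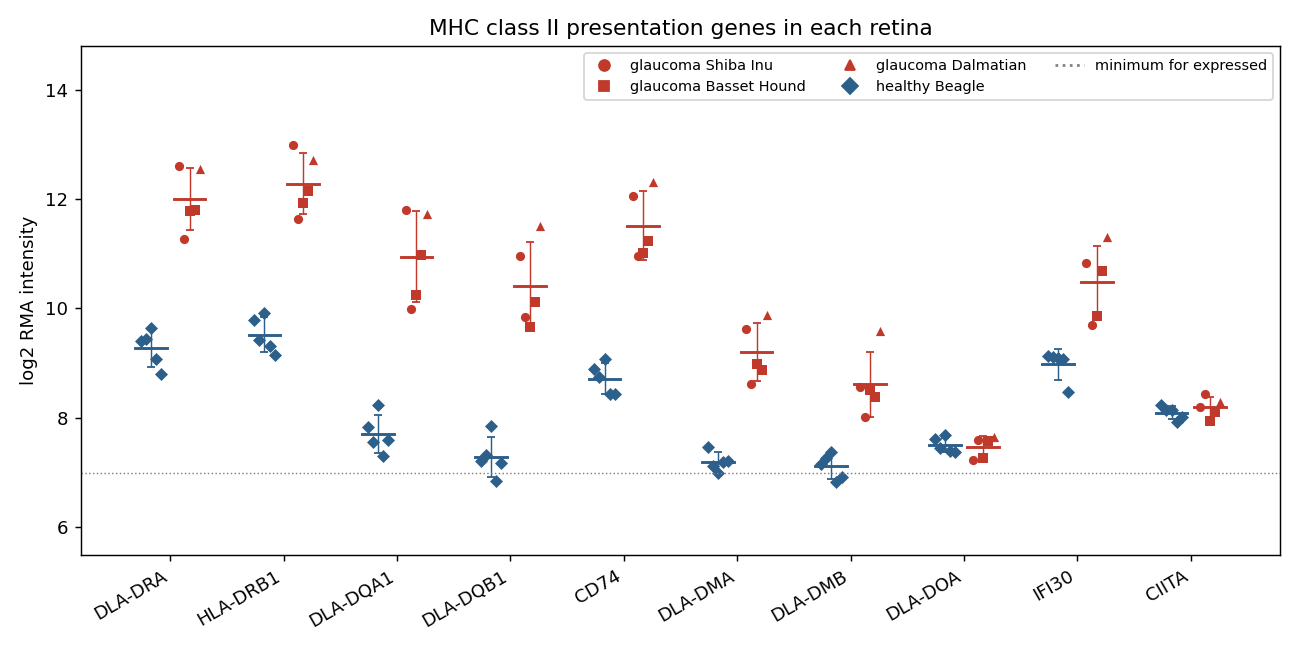
Log2 RMA intensity (vertical axis) of 9 member genes and of HLA-DRB1 in each retina, with red symbols by breed for glaucoma and blue diamonds for the healthy Beagles. Bars are means and SDs over 5 dogs, and the dotted line is the minimum of 7. The glaucomatous retinas lie above all healthy retinas in every gene except DLA-DOA and CIITA, where the groups overlap.

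CD74 was at 12.05, 10.95, 11.01, 11.24 and 12.32 in glaucoma 1 to 5 and at 8.89, 8.75, 9.07, 8.44 and 8.44 in healthy 1 to 5. The groups were 1.88 apart, a wider gap than for either DR or DQ chain. The invariant chain was higher by 2.80 or 6.95-fold in glaucoma (11.51 ± 0.63 and 8.72 ± 0.28, SD, n = 5 each, SE 0.27, adjusted p = 0.000121 from limma). Its other 2 probe sets gave 2.73 and 2.53, the second of them with healthy levels of 6.59 to 6.80, all below the minimum.

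DLA-DMA and DLA-DMB encode the chains of DM, the editor of bound peptides. DLA-DMA was at 9.62, 8.62, 8.99, 8.88 and 9.88 in glaucoma and at 7.47, 7.12, 6.99, 7.19 and 7.20 in the healthy retinas. The groups were 1.15 apart, and the difference was 2.004 or 4.01-fold (SE 0.23, adjusted p = 0.000236 from limma). DLA-DMB was at 8.56, 8.01, 8.51, 8.38 and 9.60 in glaucoma and at 7.15, 7.27, 7.37, 6.83 and 6.93 in the healthy retinas. The Dalmatian lay well above the other glaucoma dogs, and the gap to the healthy retinas was narrower at 0.63. DLA-DMB differed by 1.50 or 2.83-fold (SE 0.25, adjusted p = 0.00273). The remaining probe sets gave 1.58 for DLA-DMA and 1.62 and 1.42 for DLA-DMB, and for the last 2 no healthy retina reached the minimum. The last of these did not pass when the ratio of 3' over 5' signal of the array controls for actin and GAPDH, a measure of RNA degradation, was added to the model (1.10, adjusted p = 0.0773).

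IFI30, which reduces disulfide bonds of antigens in the lysosome, was at 10.83, 9.70, 9.87, 10.68 and 11.30 in glaucoma and at 9.13, 9.11, 9.08, 9.08 and 8.48 in the healthy retinas. Healthy 5 was low, and the other 4 healthy retinas were nearly equal. The groups lay 0.57 apart, with a difference of 1.50 or 2.83-fold (SE 0.29, adjusted p = 0.00552 from limma). The second IFI30 probe set gave 1.49 (SE 0.28, adjusted p = 0.00503). With the same ratio (log2) as a covariate, neither IFI30 probe set passed (1.38 with adjusted p = 0.068 and 1.32 with adjusted p = 0.0691).

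CIITA and DLA-DOA were tested and did not pass. CIITA was at 8.19, 8.43, 7.93, 8.11 and 8.29 in glaucoma and at 8.23, 8.14, 8.14, 7.92 and 8.02 in the healthy retinas, with the groups overlapping over most of their range. Its difference was 0.10 (SE 0.11, adjusted p = 0.568 from limma). The other CIITA probe set lay at 5.87 to 6.23 in glaucoma and 5.61 to 5.89 in the healthy retinas, all below the minimum, and when every probe set was tested it differed by 0.24 (SE 0.09, adjusted p = 0.15).

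DLA-DOA encodes the alpha chain of DO, the inhibitor of DM. It was at 7.23, 7.59, 7.26, 7.58 and 7.65 in glaucoma and at 7.62, 7.45, 7.68, 7.40 and 7.38 in the healthy retinas. The difference was -0.04 (SE 0.12, adjusted p = 0.83 from limma), and the groups overlapped, with glaucoma 1 and glaucoma 3 below the lowest healthy retina. Its second probe set was below the minimum in every retina and reached 5.90 in the Dalmatian against 4.64 to 5.16 in the healthy retinas. DLA-DOB, the partner chain, is no member and was likewise below the minimum, at 4.76 to 5.59 in glaucoma and 4.70 to 5.00 in the healthy retinas.

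**Figure D2:**
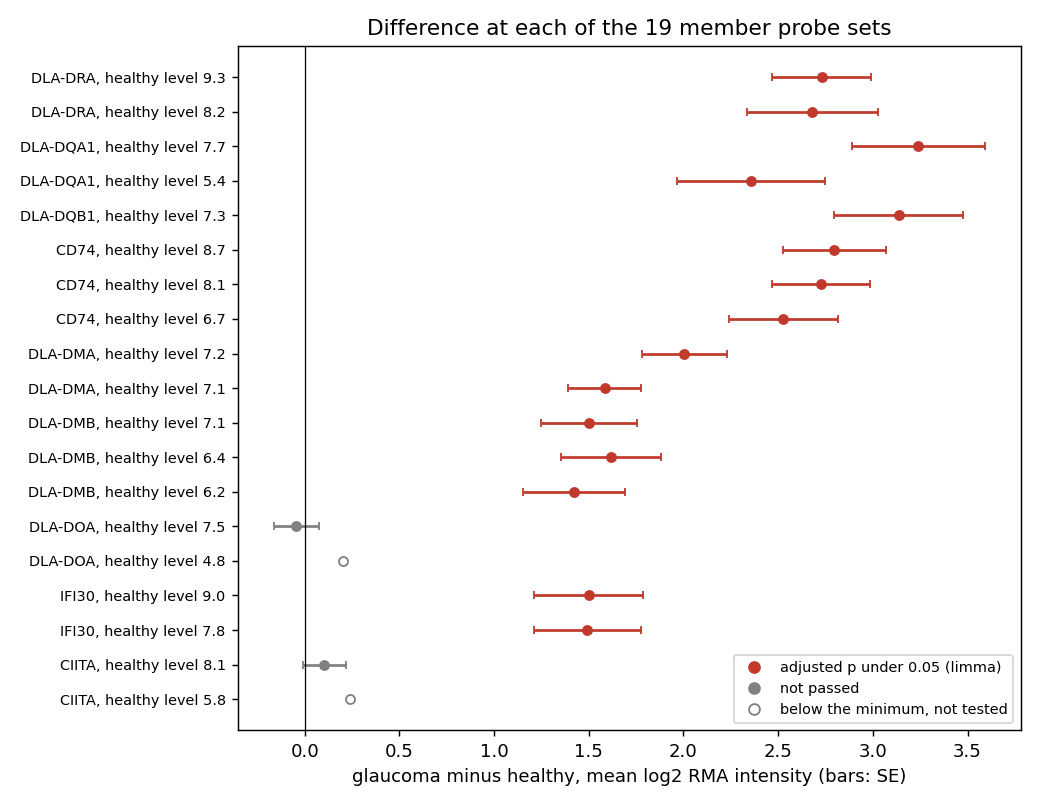
Difference of mean log2 RMA intensity, glaucoma minus healthy (horizontal axis), for each of the 19 member probe sets, named with the mean healthy log2 level. Bars are SEs from limma, red marks an adjusted p under 0.05, grey a test that did not pass, and open circles the 2 probe sets below the minimum. The 15 red probe sets lie between 1.42 and 3.24.

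By gene, with each gene taken at its tested probe set of highest mean, 7 of the 9 member genes were higher in glaucoma. Of all 7900 genes tested in this way, 8.04% were higher and 8.65% lower. Of the 15 higher probe sets, 4 were above the minimum in no healthy retina (1 each of CD74 and DLA-DQA1 and 2 of DLA-DMB), so they could be tested only because glaucoma was high. When all 42924 probe sets were tested without a minimum, 15 of the 19 member probe sets were higher, against 3.69% of all. Ordered by difference among the 7900 genes, DLA-DQA1 stood at place 12, DLA-DQB1 at 15, CD74 at 20, DLA-DRA at 23, DLA-DMA at 64, DLA-DMB at 135 and IFI30 at 136. CIITA stood at place 2779 and DLA-DOA at 4322. The glaucomatous retinas also varied more among themselves in these genes, with a median SD of 0.59 over the 9 genes against 0.28 in the healthy retinas. Over all tested genes these medians were 0.26 and 0.18.

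Whether members changed by unequal amounts was tested on the difference between 2 genes within each retina, with a two-sided exact permutation test over every split of the dogs, for 8 pairs. The chains of one molecule did not differ in change beyond the spread between dogs for DR (DLA-DRA changed by 0.03 less than HLA-DRB1, SE 0.09, exact p = 0.762, adjusted p = 0.762) and DQ (DLA-DQA1 changed by 0.10 more than DLA-DQB1, SE 0.16, exact p = 0.556, adjusted p = 0.671). DLA-DRA and CD74 likewise differed in change by -0.07 (SE 0.11, exact p = 0.587, adjusted p = 0.671). DLA-DRA rose more than CIITA by 2.63 (SE 0.30) and more than IFI30 by 1.23 (SE 0.18), each with an exact p of 0.00794, the smallest that these splits give, and an adjusted p of 0.0317. DLA-DRA also rose more than DLA-DMA by 0.73 (SE 0.20, exact p = 0.0159, adjusted p = 0.0423), and DLA-DMA more than DLA-DMB by 0.50 (SE 0.20, exact p = 0.0238, adjusted p = 0.0476). In the healthy retinas DLA-DMA (6.99 to 7.47) and DLA-DMB (6.83 to 7.37) lay near the minimum, and DLA-DRA at 8.79 to 9.65. The part of these unlike levels in the sizes of change was not tested. Between DLA-DRA and DLA-DQA1 the difference of -0.51 did not pass (SE 0.20, exact p = 0.0476, adjusted p = 0.0762), and with the dimmest tested probe set of each gene it was 0.32. Without glaucoma 3 it passed (-0.63, adjusted p = 0.0476).

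The DM difference was the least stable of the 4 that passed. It was lost without glaucoma 1 (adjusted p = 0.14), glaucoma 2 (0.102), glaucoma 3 (0.0762), glaucoma 4 (0.0952), healthy 2 (0.0635), healthy 3 (0.0762) or healthy 5 (0.0508), and with the dimmest tested probe sets it was 0.16 (adjusted p = 0.317). The difference between DLA-DRA and DLA-DMA was lost without glaucoma 1 or glaucoma 4 (adjusted p = 0.0635 each), which left 2 passing pairs. With the dimmest probe sets DLA-DQA1 changed less than DLA-DQB1 by 0.78, so unequal change between the DQ chains depends on the DLA-DQA1 probe set.

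The class II genes lie in one stretch of the dog MHC, interleaved with genes of class I presentation. RefSeq places 14 protein coding genes there from DLA-DRA to DLA-DOA, of which 6 are members, 13 were on the array and 12 were tested. In this stretch 8 genes were higher in glaucoma and 0 were lower (8.04% and 8.65% of all genes). Among the 8, only PSMB8 and TAP1 were not already given above. The rest are HLA-DRB1 and the members DLA-DRA, DLA-DQA1, DLA-DQB1, DLA-DMA and DLA-DMB. DLA-DRA, HLA-DRB1, DLA-DQA1 and DLA-DQB1 are neighbours at one end. Next to the DM genes stand PSMB8 and PSMB9, subunits of the immunoproteasome, and TAP1, one chain of the peptide transporter. PSMB8 rose by 1.70 (SE 0.27, adjusted p = 0.00169 from limma) and TAP1 by 1.63 (SE 0.28, adjusted p = 0.00299). PSMB9 differed by 1.02 and did not pass (adjusted p = 0.0742).

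Some genes of the stretch did not pass. TAP2, the partner of TAP1, differed by -0.02 (adjusted p = 0.926 from limma), although it lies between DLA-DOB and PSMB8. BRD2, a chromatin reader of general function that stands between DLA-DMA and DLA-DOA, differed by 0.08 (adjusted p = 0.555) at its brightest probe set, and 1 of its other probe sets by 0.35 (adjusted p = 0.0494).

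**Figure D3:**
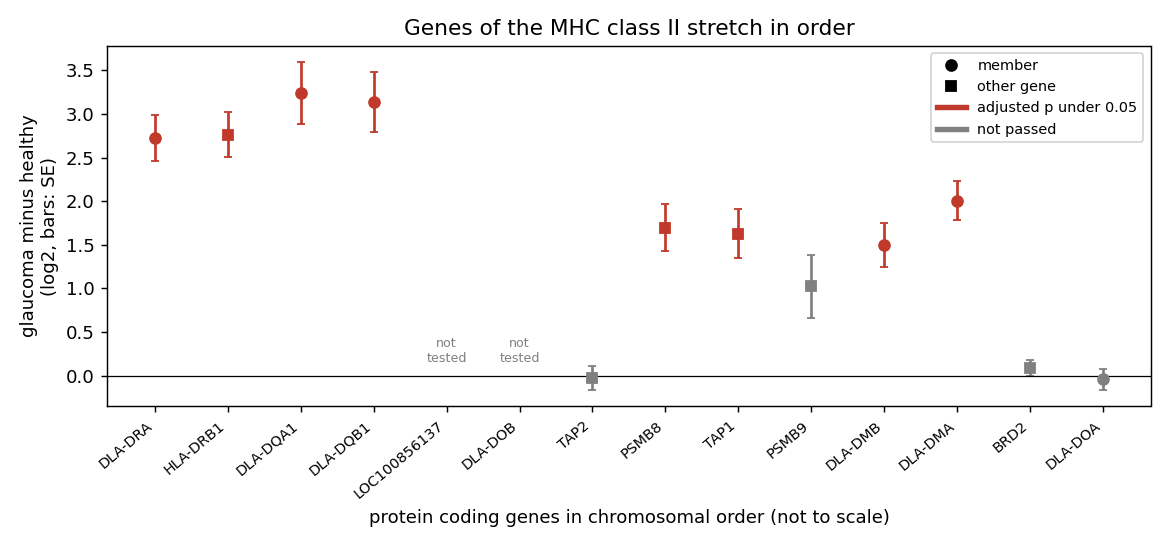
Difference of mean log2 RMA intensity, glaucoma minus healthy (vertical axis, bars SE from limma), for the 14 protein coding genes from DLA-DRA to DLA-DOA in chromosomal order, not to scale. Circles are members, squares other genes, and red marks an adjusted p under 0.05. Of the tested genes, TAP2 and PSMB9 lie among the 8 in red and did not pass, nor did BRD2 and DLA-DOA at the far end.

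Other genes of the pathway were taken from 5 lists with 51 names, of which 34 genes were tested, and 13 were higher and 0 lower (8.04% and 8.65% of all genes). Their median difference was 0.47, against -0.01 over all genes. The list of endosomal proteases, which cut the invariant chain and antigens, held 6 of the 13 (5 proteases and the inhibitor CSTB). Cathepsin S, CTSS, the main protease of the last step of invariant chain cleavage, was at 9.10 ± 0.33 in the healthy and 11.47 ± 0.47 in the glaucomatous retinas (SD, n = 5 each), a rise of 2.37 or 5.17-fold (SE 0.23, adjusted p = 0.000124 from limma). Cathepsin C, CTSC, which activates serine proteases, rose by 3.15 or 8.86-fold (SE 0.31, adjusted p = 0.000125), and CTSH by 1.998 (SE 0.41, adjusted p = 0.0072). Legumain, LGMN, which makes an early cut in the invariant chain, rose by 1.01 (adjusted p = 0.00864), CSTB, a cathepsin inhibitor, by 1.33 (adjusted p = 0.00302) and CTSZ by 1.17 (adjusted p = 0.0456). CTSB at 0.72 and CTSD at 0.78 did not pass, and the median over the 8 tested genes was 1.25.

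Of the 6 tested factors that bind class II promoters, only CREB1 passed, at 0.50 (SE 0.15, adjusted p = 0.0379 from limma), with overlapping groups. No healthy retina reached the minimum for CREB1, so it could be tested only because glaucoma was high. The subunits of the RFX complex, which binds the X box with CIITA, differed by -0.13 for RFX5 (adjusted p = 0.412), 0.08 for RFXANK (adjusted p = 0.687) and 0.35 for RFXAP (adjusted p = 0.107). The NF-Y subunits differed by -0.37 for NFYB and 0.08 for NFYC. The list's median was 0.08.

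In interferon gamma signalling 2 of 6 tested genes were higher. The receptor chain IFNGR2 rose by 0.73 (SE 0.21, adjusted p = 0.0378 from limma) and the kinase JAK2 by 0.45 (SE 0.13, adjusted p = 0.0418). Other tested probe sets of IFNGR2 gave 0.69 (adjusted p = 0.0359) and 0.54, which did not pass (adjusted p = 0.14). The dimmer JAK2 probe set gave 0.71 (adjusted p = 0.0105). IRF1, a target of the pathway, differed by 0.64 (adjusted p = 0.0646), JAK1 by 0.24 (adjusted p = 0.0782), IRF2 by -0.31 (adjusted p = 0.13) and the ligand binding chain IFNGR1 by -0.12 (adjusted p = 0.725). IFNG itself was below the minimum in every retina (4.70 to 5.10 in glaucoma, 4.93 to 5.12 in the healthy retinas), as were IRF8, SOCS1 and SOCS3.

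Among genes of class II trafficking and turnover 3 of 9 tested genes were higher, namely the leukocyte tetraspanins CD37 (1.30, SE 0.25, adjusted p = 0.00515 from limma) and CD53 (1.20, SE 0.21, adjusted p = 0.00331) and the adaptor subunit AP1S2 (0.94, SE 0.15, adjusted p = 0.00206). The tetraspanins CD63, CD82 and CD9 differed by 0.62, 0.13 and -0.12 and did not pass. Among costimulation genes 1 of 5 passed. CD86, the ligand of CD28 on T cells, rose from 7.98 ± 0.31 to 9.90 ± 0.62 (SD, n = 5 each), by 3.80-fold (SE 0.28 on the log2 scale, adjusted p = 0.00103). ICAM1 differed by 1.16 (adjusted p = 0.0584), CD40 by 0.34, CD4 by -0.22 and LAG3 by -0.30. CD80 was not tested because fewer than 2 retinas exceeded the minimum, with 5.72 to 7.10 in glaucoma and 5.16 to 5.79 in the healthy retinas at its brightest probe set. When every probe set was tested it was higher by 1.05 (adjusted p = 0.0177).

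With the 3' to 5' ratio as a covariate 6 of the 13 pathway calls were left, and CD37, CREB1, CTSH, CTSZ, IFNGR2, JAK2 and LGMN were lost. With a second such ratio, from other actin and GAPDH controls, 0 were lost and CD63, CTSB, CTSD and ICAM1 were gained (17 calls). Other settings gained calls too, among them IRF1 with array weights and JAK1 with the trend and robust options. Calls were also lost with age as a covariate (JAK2 with adjusted p = 0.079, LGMN with 0.0526), with no filter (CTSZ 0.0654, IFNGR2 0.0517, JAK2 0.0507), with the replicate number as a block (CREB1 0.073, CTSZ 0.0751, JAK2 0.0748) and without the Basset Hounds (CREB1 0.12, JAK2 0.0831). With the stricter filter CREB1 was not tested, and without glaucoma 1 and healthy 4 together CREB1, CTSZ, IFNGR2 and JAK2 were lost (9 calls). CREB1, CTSZ, IFNGR2 and JAK2 were all lost without glaucoma 5, healthy 2, healthy 4 or healthy 5 (9 calls each). Some of them were also lost without glaucoma 1 (CREB1, CTSZ, JAK2), glaucoma 3 (CREB1, CTSZ), glaucoma 4 (CREB1, IFNGR2, JAK2), healthy 1 (IFNGR2) or healthy 3 (CTSZ, IFNGR2, JAK2), with adjusted p up to 0.0907 for CREB1, 0.109 for CTSZ, 0.0831 for IFNGR2 and 0.097 for JAK2 over these retinas.

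**Figure D4:**
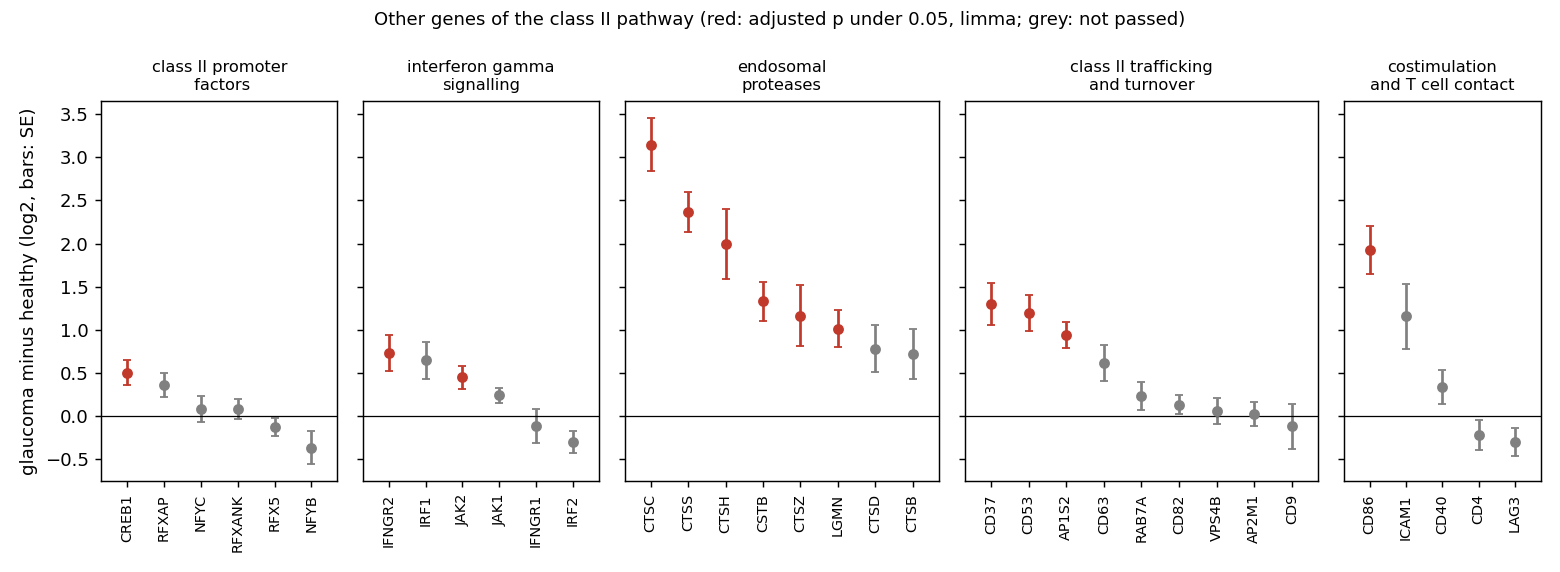
Difference of mean log2 RMA intensity, glaucoma minus healthy (vertical axis, bars SE from limma), for the 34 tested genes of 5 pathway lists, 1 panel per list. Red marks an adjusted p under 0.05. The list of endosomal proteases holds 6 of the 13 red genes (5 proteases and the inhibitor CSTB), and the promoter factors lie near 0, between -0.37 and 0.50.

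The genes outside the members whose pattern was most like that of DLA-DRA were found by the root mean square difference of log2 levels, each less its healthy mean, over the 10 retinas. HLA-DRB1 was nearest at 0.13, followed by CLEC12A, a lectin receptor of myeloid cells, at 0.28, CTSS at 0.30, gamma synuclein, SNCG, at 0.32 and CTSC at 0.34. Among members, CD74 stood at 0.17, DLA-DQB1 at 0.42, DLA-DQA1 at 0.46, DLA-DMA at 0.58, IFI30 at 0.90 and DLA-DMB at 0.91. CLEC12A was at 9.46, 8.67, 9.17, 9.56 and 9.92 in glaucoma and at 7.17, 7.04, 6.78, 6.21 and 6.06 in the healthy retinas. The groups did not overlap, and healthy 4 and healthy 5 were lowest, as they were for DLA-DRA. CLEC12A was picked for its likeness to DLA-DRA, so these features follow from the choice and add no support. The likeness of SNCG rests on its brightest probe set, since another of its probe sets was lower in glaucoma by a difference of -2.57 (adjusted p = 0.000232 from limma).

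Among the glaucoma dogs the Dalmatian and the younger Shiba Inu had the highest class II levels. The median level of the 9 member genes above the healthy mean was 2.43, 1.43, 1.80, 1.71 and 2.68 in glaucoma 1 to 5, and 0.13, 0.04, 0.26, -0.19 and -0.12 in healthy 1 to 5. The Dalmatian was the highest glaucoma dog in 6 of the 9 genes and the older Shiba Inu the lowest in 6. The 2 Shiba Inus thus stood at different ends of the group, and the 2 Basset Hounds lay between them. Among the Beagles healthy 3 was highest in 6 genes and healthy 4 lowest in 5.

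Markers of microglia and macrophages moved with the class II genes. Of 14 tested genes 11 were higher and 0 lower, with a median difference of 1.69. Over all tested genes 8.04% were higher and 8.65% lower, shares that apply to the lists below too. In each list, a gene below the minimum in the healthy retinas could be tested only where glaucoma was high. At the probe sets that the study lists, the healthy means of CSF1R and TREM2 were below that minimum. The mean of the microglia and macrophage list above the healthy level was 1.32 to 2.18 in glaucoma and -0.20 to 0.17 in the healthy retinas. In glaucoma 1 to 5 it was 2.18, 1.34, 1.32, 1.57 and 2.02, so the same 2 dogs were high as for class II. These 2 dogs were also the highest for endosomal proteases, class I presentation and pigment epithelium genes, so their order is not particular to microglia. The same held for interferon gamma signalling, class II trafficking, costimulation and the 1 tested dendritic cell gene. These dogs were not the 2 highest for Muller glia and astrocyte, T cell, B and plasma cell, endothelial, rod and cone or promoter factor genes. CSF1R, the receptor that microglia need to survive, rose by 3.26 (SE 0.34, adjusted p = 0.000166 from limma), the complement subunit C1QC by 3.44 (SE 0.29, adjusted p = 7.1e-05), TYROBP by 2.03 (adjusted p = 0.000251) and AIF1 by 1.34 (adjusted p = 0.00707). The others that rose were CD163 by 3.10, C1QB by 2.76, C1QA by 2.23, LAPTM5 by 2.08, TREM2 by 1.32, CD68 by 0.91 and CD14 by 0.89 (adjusted p from 0.000135 to 0.0146). P2RY12 and TMEM119, which mark resting microglia, differed by -0.37 (adjusted p = 0.516) and 0.14 (adjusted p = 0.352), and MRC1 by 0.48 (adjusted p = 0.148). ITGAM, SPI1, PTPRC and FCER1G were not tested because they exceeded the minimum in fewer than 2 retinas.

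In the lists used here, other cells that carry class II were marked more weakly. Of 9 dendritic cell genes on the array 1 was tested, FLT3, with a difference of 0.05 (adjusted p = 0.871 from limma), and ITGAX, CCR7, CD1C and LAMP3 lay below the minimum in every retina. Of 8 B and plasma cell genes 1 was tested, JCHAIN, which was lower by a difference of -0.88 (adjusted p = 0.0223), while CD79A, CD79B, MS4A1, CD22 and PAX5 were below the minimum. The list lacks immunoglobulin heavy chains and FCRLA, which the study reports as higher in glaucoma by its own test. Its staining for CD3 and CD79 showed no positive cells in the retina, apart from occasional CD3 positive cells around vessels. Of 9 T cell genes both tested ones rose, CD2 by 0.74 (adjusted p = 0.00578) and CD3E by 0.43 (adjusted p = 0.0357). The list means were -0.25 to 0.62 in glaucoma and -0.16 to 0.16 in the healthy retinas for dendritic cells, -1.56 to -0.19 and -0.38 to 0.22 for B cells, and 0.40 to 0.92 and -0.20 to 0.15 for T cells.

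Of 8 tested genes of Muller glia and astrocytes 3 rose, GFAP by 2.46 (adjusted p = 0.00228 from limma), AQP4 by 1.81 (adjusted p = 0.00149) and CLU by 0.42 (adjusted p = 0.00639), and the list mean was 0.48 to 1.24 in glaucoma and -0.15 to 0.19 in the healthy retinas. Of 3 endothelial genes 0 passed. Of 9 tested class I presentation genes 7 rose, with a median of 1.63, and B2M, the light chain of class I, by 0.88 (adjusted p = 0.00285). Rod and cone genes were lower in the retinas that were highest in class II, with a list mean of -3.30, -0.18, -0.13, -0.85 and -1.74 in glaucoma 1 to 5 and -0.24 to 0.19 in the healthy retinas. Of their 12 tested genes 2 were lower, the cone genes OPN1SW (-3.0, adjusted p = 0.0223) and PDE6C (-1.49, adjusted p = 0.0381). The pigment epithelium list mean was 3.04, 0.33, -0.11, 0.65 and 1.05 in glaucoma 1 to 5, highest in glaucoma 1 and glaucoma 5, as for class II. In the healthy group healthy 4 was high in pigment epithelium genes, at 2.17, and low in class II. The part of these cell types in the class II differences was not tested.

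**Figure D5:**
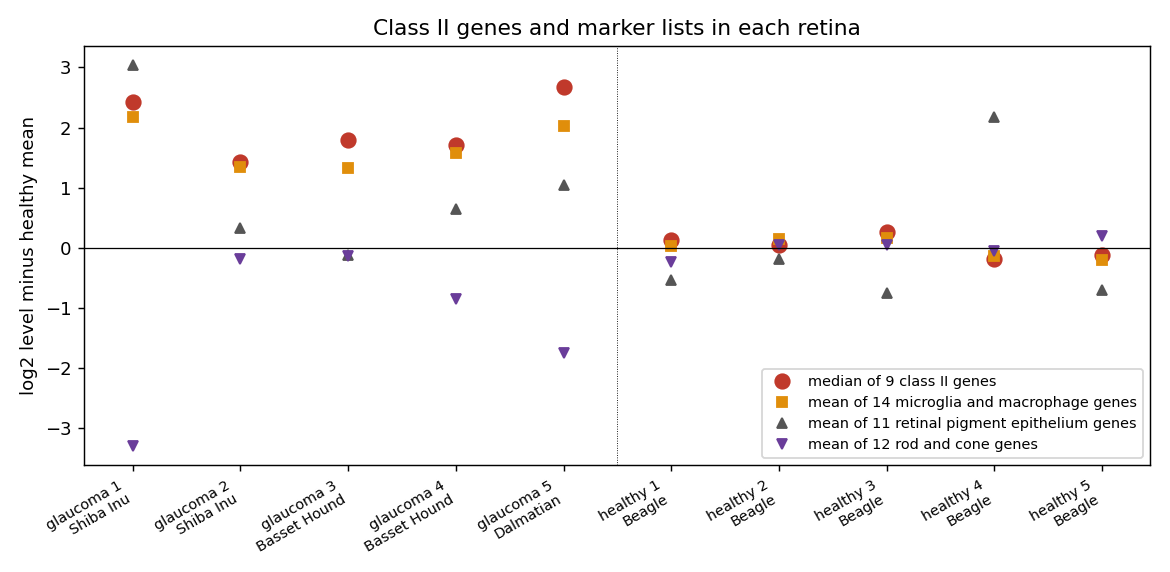
Log2 level minus the healthy mean (vertical axis) in each of the 10 retinas, for the median of the 9 member genes and for the mean of the tested genes of 3 marker lists. Class II and microglial values are high together in all 5 glaucomatous retinas, at 1.43 to 2.68 and 1.32 to 2.18. Pigment epithelium values are highest in glaucoma 1 (3.04) and healthy 4 (2.17), followed by glaucoma 5 (1.05).

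The 3' to 5' ratio, on the log2 scale, averaged 0.94 ± 0.14 in the glaucomatous and 1.19 ± 0.22 in the healthy retinas (SD, n = 5 each). The exact permutation p of this difference was 0.0556 (two-sided). With a second set of actin and GAPDH controls the log2 ratio was 1.42 ± 0.22 and 1.40 ± 0.19 (exact permutation p = 0.873). With the first ratio as a covariate 12 of the 15 member probe sets and 6 of the 7 genes passed, and with the second 15 and 7. The part of RNA quality in the differences was not tested further. The exact Wilcoxon rank sum test gave 15 member probe sets an unadjusted p of 0.00794, the smallest it allows, and 0 passed after adjustment (smallest adjusted p 0.0534, exact). Of all 18416 tested probe sets 0 passed as well, so this test cannot set the members apart from the rest.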

How the data were processed

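Retinal RNA of 10 dogs was measured on 1 array each, and no samples were pooled. The authors deposited linear intensities that they had made from the raw arrays with RMA, and log2 was taken here. RMA removes background, equalises the distributions of the arrays and combines the probes of a probe set, so a shift of a whole array cannot be seen. The 111 array controls were left out. Gene symbols came from the platform's annotation, which can be old (29254 probe sets with 1 symbol, 439 with several, 13231 with none). Gene order came from RefSeq for the assembly UU_Cfam_GSD_1.0, and no coordinates are given because the array's own build is not named.

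Glaucoma and healthy were compared with limma 3.58.1 under R 4.3.3 (lmFit and eBayes, no covariates) over 18416 expressed probe sets (at least 2 retinas above 7 on the log2 scale, as the study defines it), with Benjamini-Hochberg adjustment over all of them. Where a gene had several tested probe sets, the one of highest mean over the 10 retinas stood for it. All member probe sets were named, and every gene of the lists could be named, most of those that passed with their values and the others by values or counts. The 5 genes most like DLA-DRA were those with the smallest root mean square difference. The members, the 14 gene lists and the tests were chosen with earlier results of these data known.

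Alternatives were no filter or a stricter one, the exact Wilcoxon test of the methods, limma with trend and robust options, median centring, array weights, the replicate number as a block, age or the 3' to 5' ratio as a covariate, either repeated breed left out, a 2-fold minimum, the dimmest tested probe set of each gene and each retina left out in turn. A second 3' to 5' ratio and the omission of glaucoma 1 and healthy 4 were added after seeing the data. Arrays have no depth in reads, and their number limits the precision.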

Additional observations from a re-analysis of the deposited data

Results flagged for a closer look

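Within a group of 5 retinas, a retina was marked when its gap to the nearest other, divided by the range of the group, exceeded the critical value of Dixon's test of 0.71. Chance marks about 1 in 20 groups, and 3 of the 34 groups of tested member probe sets were marked. For the brighter IFI30 probe set healthy 5 was lowest, at 8.48 against 9.08 in the nearest healthy retina (ratio 0.927). Healthy 5 was also lowest at the other IFI30 probe set, at 7.42 against 7.78 (ratio 0.724). For the dimmer DLA-DQA1 probe set healthy 3 was highest, at 5.86 against 5.31 (ratio 0.76), with all healthy values below the minimum for an expressed gene.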

How the results depend on the processing

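The counts of 15 member probe sets and 7 member genes were the same under each limma alternative except a stricter filter (13 probe sets, since 2 fewer were tested) and the 3' to 5' ratio (12 and 6). Leaving out each retina gave 15 and 7 throughout, 9 to 14 pathway genes and 2 to 4 unequal pairs. Pathway genes were 6 with the first 3' to 5' ratio and 17 with the second. The exact Wilcoxon test gave 0 member probe sets, 0 member genes and 0 pathway genes after adjustment (15, 7 and 17 at an unadjusted p under 0.05). It also gave 0 of all 18416 tested probe sets. Unequal pairs went from 4 to 2 without glaucoma 1 or glaucoma 4. DLA-DOA changed sign near 0, to 0.042 with array weights and, with 1 retina left out, between -0.092 and 0.014 (above 0 without glaucoma 1 or glaucoma 3), and CIITA to -0.069 with age as a covariate, and the cause was not tested. All healthy dogs had the same age, so the slope on age rests on the glaucoma dogs. With the replicate number as a block 15 probe sets, 7 genes and 10 pathway genes passed. The numbers only name dogs (correlations of deviations from -0.243 to 0.069), so they do not pair them. Over all tested probe sets, calls higher and lower in glaucoma went from 1396 and 1732 to 408 and 522 with the first 3' to 5' ratio. They were 1746 and 2030 with the second ratio and 943 and 1114 with the block. Each probe set rests on 5 dogs per group.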
